A study of Homo sapiens with 9 samples.

Results

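A group of 37 genes of the unfolded protein response and the integrated stress response was followed in HEK293 cells that carried an empty vector (EV) or an expression plasmid for an isoform of the RNA editing enzyme ADARB1. The genes were listed by name for their known roles, as endoplasmic reticulum (ER) chaperones, as parts of ER-associated degradation (ERAD) or as members of the ATF4 pathway, with earlier results of these data known. All 37 symbols were found among the 54562 genes of the deposited table, and all 37 had a mean of at least 1 FPKM over the 9 libraries (FPKM, the fragments of a gene divided by its length and by the size of its library). HEK293 is an established human embryonic kidney cell line that takes up plasmid DNA readily. The cells received EV, pCMV6-AC with the ADARB1 open reading frame that lacks the Alu exon (Short), or the same plasmid with the Alu exon inserted (Long), by transient transfection with a lipid reagent (Lipofectamine). Expression was driven by the viral promoter of the plasmid. RNA was collected 48 hours after transfection, and polyadenylated RNA was sequenced from both ends with a strand-specific kit. The transfections were made in 3 cell passages, which gave 3 libraries in each of the 3 groups, and the replicate number of a library was taken as its passage. EV cells were transfected as well, so a response to transfection that all groups share cannot be seen, and no untransfected cells were analysed here. Each passage holds 1 library of each group, so differences between groups can be read within passages. Whatever else was shared by the libraries of a passage, such as cell density or the day of preparation, cannot be told apart from the passage itself.

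Proteins that enter the secretory pathway fold in the ER with the help of chaperones and disulfide isomerases, and proteins that fail to fold are sent back to the cytosol for degradation by the ERAD machinery. When unfolded proteins accumulate, the sensors ATF6, IRE1 (encoded by ERN1) and PERK (encoded by EIF2AK3) are activated: ATF6 and the spliced form of XBP1 raise chaperone and ERAD genes, while PERK phosphorylates eIF2alpha, which slows translation in general and favors translation of ATF4. ATF4 is also reached from other eIF2alpha kinases, such as the amino acid sensor GCN2, and raises genes for amino acid supply together with DDIT3 (CHOP), TRIB3 and CHAC1. Gene-level FPKM counts the spliced and unspliced forms of XBP1 together, and it measures the mRNA and not the translation of ATF4 and PPP1R15A, so activation of the sensors themselves is outside these values. The 37 genes are described below as an ATF4 arm of 13 genes (ATF4, ATF3, DDIT3, the feedback and stress effectors, and the genes of amino acid supply) and an ER arm of the other 24.

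Several of these genes carry short DNA motifs of the response just before their start site. RefSeq promoter windows (GRCh38.p14, from 250 bases before to 50 bases after the start) were matched for 33 of the 37 genes, and PDIA3, SHMT2, SLC7A11 and DERL1 were not matched. The ER stress element (ERSE, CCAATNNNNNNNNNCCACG on either strand), which is bound by ATF6 together with NF-Y, was found in 7 of the 33 genes (21.2%), against 0.0916% of the 27305 genes with a window. ERSE-II (ATTGGNCCACG on either strand) was found in 3 of the 33 (HERPUD1, HYOU1 and SDF2L1), against 0.0696% of genes with a window. The genes were listed for known roles in this response. A motif share above that of all genes is therefore a description of the list and not an independent finding. The following windows belong to HSPA5 (BiP), the standard marker of the response, to the chaperones CALR and HSP90B1, which passed in Long below, and to HERPUD1, an ERAD gene that differed between passages. The motif is in capitals, read on the strand of the gene, and HSP90B1 holds both orientations.
HSPA5, chr9:125241385-125241415, minus strand: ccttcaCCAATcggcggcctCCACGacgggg
CALR, chr19:12938378-12938408, plus strand: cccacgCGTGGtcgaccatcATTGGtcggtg
HSP90B1, chr12:103930210-103930240, plus strand: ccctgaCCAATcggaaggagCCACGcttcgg
HSP90B1, chr12:103930315-103930345, plus strand: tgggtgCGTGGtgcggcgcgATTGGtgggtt
HERPUD1, chr16:56932019-56932041, plus strand: acgccgATTGGgCCACGttggga
The other genes with an ERSE were CANX, CRELD2, PDIA6 and XBP1, and HYOU1 holds 2 ERSE-II sites. The UPR element TGACGTGG (searched on both strands), a target of XBP1 and ATF6, was found only in HYOU1 (3.03% of the matched genes, against 0.927% of genes with a window), where it overlaps an ERSE-II. The exact ERSE match in HSPA5 lies between 66 and 48 bases before the start site. Copies of the element that differ from these letters were not searched for, so the number of elements is not given. The 150 bases that end at the start site on the minus strand (chr9:125241344-125241493) are shown with only the exact match in capitals:
HSPA5: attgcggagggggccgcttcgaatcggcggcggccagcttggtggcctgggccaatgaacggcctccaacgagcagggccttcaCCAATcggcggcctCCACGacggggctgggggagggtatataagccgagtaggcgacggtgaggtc

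The C/EBP-ATF response element (CARE, TGATGNAA on either strand), at which ATF4 pairs with a C/EBP factor, was found in 4 of the 33 genes of both arms (12.1%), against 4.46% of genes with a window. They were ASNS, ATF3 and CHAC1 of the ATF4 arm and HERPUD1 of the ER arm, each with 1 site, and their windows are shown because all 4 genes differed between passages below. PPP1R15A held the cyclic AMP response element TGACGTCA (both strands), which 2.25% of genes with a window hold. A match of letters is a description of the window, and binding was not measured.
ASNS, chr7:97872463-97872482, minus strand: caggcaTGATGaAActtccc
ATF3, chr1:212565210-212565229, plus strand: tcaggaTGATGgAAggctgt
CHAC1, chr15:40953256-40953275, plus strand: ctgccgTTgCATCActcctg
HERPUD1, chr16:56931960-56931979, plus strand: ggcgggTTgCATCAgcccgt

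The plasmids were checked first. ADARB1 was at 7.66, 8.0 and 8.61 FPKM in EV replicates 1, 2 and 3. It reached 1889, 4145 and 2735 FPKM in the Short libraries and 1695, 3449 and 2080 FPKM in the Long libraries, so every library with an ADARB1 plasmid stood far above every EV library. Genes known from HEK293 cells were present in all 9 libraries, with NEFM at 48.6 to 75.5 FPKM, VIM at 132 to 164 FPKM, KRT8 at 163 to 216 FPKM, KRT18 at 76.3 to 99.6 FPKM and PAX2 at 1.73 to 2.87 FPKM. Of the markers of other cells, PTPRC and CD3E (leukocytes), ALB (hepatocytes) and CDH5 (endothelium) did not exceed 0.131, 0.0436, 0.326 and 0.0302 FPKM, UMOD (mature kidney tubule) was listed at 0 in all libraries, and the collagen gene COL1A1 was at 9.10 to 12.9 FPKM. NEFL was not analysed here. These are bulk values, so fewer cells that make a transcript and less of it per cell cannot be told apart. The FPKM of all genes summed to 541348, 524578 and 517170 in EV, 589535, 556722 and 533531 in Short, and 567585, 556234 and 544461 in Long. Read numbers are not part of the table. Steps in the lowest FPKM values placed library depth between 0.993 and 1.21 times that of the first EV library.

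In EV cells the 37 genes were well expressed, with a median of 38.0 FPKM, against 11.6 FPKM over the 13815 genes that reached 1 FPKM or more on average in EV. FPKM is per length, so levels of genes of unlike length can be set side by side. Effects of GC content and of shared or overlapping sequence may remain. CALR (calreticulin), a calcium-binding lectin chaperone, had the highest EV level at 371 ± 19.7 FPKM (SD, n = 3), followed by its membrane-bound relative CANX (calnexin) at 353 ± 31.4 FPKM and HSP90B1 (GRP94), the HSP90 of the ER, at 345 ± 42.5 FPKM. ATF4, at 298 ± 43.6 FPKM, was the next in order and far above the other transcription factors. Neighbors among these 4 genes overlapped in their EV libraries. HSPA5, the HSP70 of the ER, was at 182 ± 14.8 FPKM, and the EV libraries of ATF4 were all above those of HSPA5. The disulfide isomerases PDIA3, PDIA6 and PDIA4 ranged from 133 to 174 FPKM. The serine and one-carbon enzymes PHGDH, SHMT2 and PSAT1 were at 165 ± 37.7, 122 ± 17.0 and 122 ± 18.8 FPKM, and ASNS (asparagine synthetase) was at 134 ± 33.1 FPKM. The sensors had the lowest median of the roles, with EIF2AK3 at 8.88 ± 1.01, ATF6 at 8.64 ± 0.865 and ERN1 at 3.82 ± 0.666 FPKM, the lowest of the 37. The ERAD genes ranged from 8.42 FPKM for DERL2, below EIF2AK3 and ATF6, to 38.0 FPKM for DERL1, both channel-forming derlins. Of the 36 pairs of neighbors in the order of EV means, 30 overlapped in their EV libraries.

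**Figure D1:**
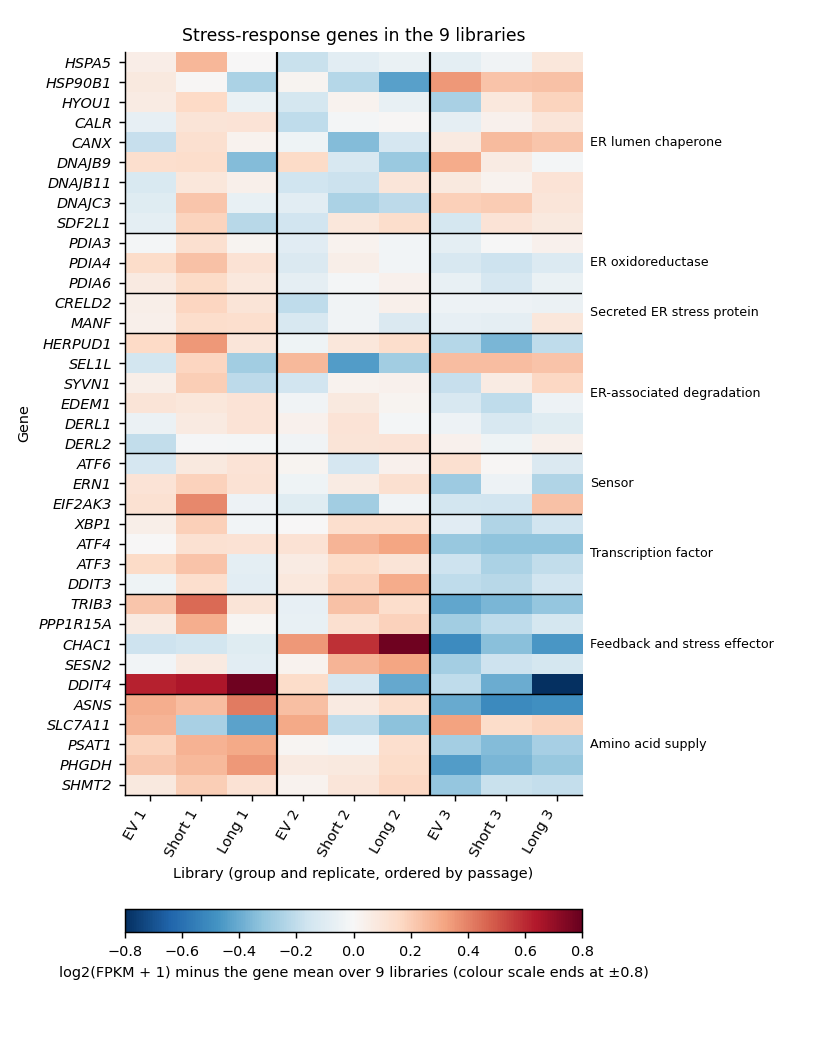
Each cell of the heat map shows log2(FPKM + 1) of a gene in a library minus the mean of that gene over the 9 libraries; rows are the 37 genes grouped by role and columns are the libraries ordered by passage, with the color scale ending at 0.8 on either side. The lower rows (the ATF4 arm) are blue in the 3 libraries of passage 3, where ASNS was at 88.8 to 95.7 FPKM against 133 to 170 FPKM in the other libraries, and SLC7A11 is the exception.

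The first comparison asks whether stress transcripts differed between cells that made the ADARB1 short isoform and EV cells. None of the 37 genes passed the adjusted threshold of 0.05 (limma on log2(FPKM + 1) with the passage as a block and Benjamini-Hochberg adjustment over 13801 genes), where 0.0362% of the genes tested passed. At an unadjusted p under 0.05 there were 8 of the 37 (21.6%), against 22.0% of the genes tested, so the share of these genes was close to that of genes in general. Of the 8, 6 (16.2%, against 15.2% of the genes tested) were higher, namely CALR, HYOU1, SDF2L1, PDIA3, TRIB3 and SHMT2, and 2 (5.41%, against 6.88%) were lower, namely HSP90B1 and SLC7A11. The median log2 fold change of the 37 genes was 0.060, against 0.041 over all genes tested, and 29 of the 37 (78.4%) were above 0 against 61.0% of all genes. With values scaled so that every library had an equal sum (TPM) 15 of the 37 (40.5%) and 40.1% of all genes were above 0. With median ratio scaling the shares were 56.8% and 48.7%, and after the GC correction described below 81.1% and 61.9%. The gap between these genes and all genes thus closed with TPM but not with the GC correction. The intervals bound what could have been missed. The 95% interval of every one of the 37 log2 fold changes lay between -1 and 1, with a median half-width of 0.16. The highest upper bound was 0.45, a 1.36-fold rise on the FPKM + 1 scale, for SDF2L1 (a DnaJ partner in the ER lumen that is induced early by ER stress), and the lowest bound was -0.65 for SLC7A11.

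With the Long plasmid 4 of the 37 genes passed (10.8%), against 8.32% of the genes tested, and they did not move in a common direction: the lectin chaperone CALR rose, while the chaperone HSP90B1, the co-chaperone DNAJB9 and the cystine transporter SLC7A11 fell. The 1 gene that rose is 2.70% of the 37 (1.99% of all genes tested rose) and the 3 that fell are 8.11% (6.33% of all genes tested fell). At an unadjusted p under 0.05 there were 6 (16.2%), against 24.4% of the genes tested. The other 2 were DDIT4, lower, and PHGDH, higher, with adjusted p = 0.116 and 0.119 (limma). The median log2 fold change was 0.072, against 0.039 over all genes tested, with 29 of the 37 above 0 against 60.7% of all genes, and with TPM 19 of the 37 (51.4%) were above 0 against 40.5% of all genes. The highest upper bound of a 95% interval was 0.39, a 1.31-fold rise, for EIF2AK3, and the lowest bound was -0.74 for DDIT4. These bounds hold for the fit without a GC correction. After the GC correction described below the highest log2 fold change was 0.34, in the ER arm, against 0.18 before it, and none of the 37 passed.

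**Figure D2:**
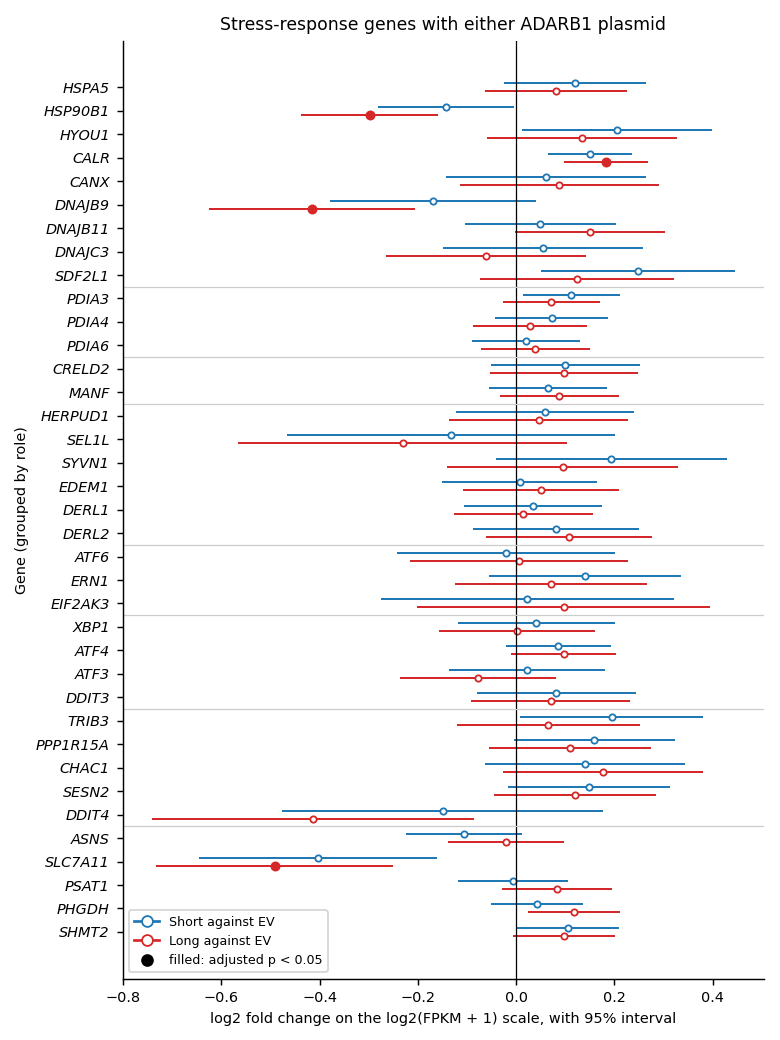
Points are log2 fold changes on the log2(FPKM + 1) scale of the 37 genes with their 95% intervals from limma, for Short against EV (blue) and Long against EV (red), in order of role; filled points have an adjusted p under 0.05. The only filled points are CALR above 0 and HSP90B1, DNAJB9 and SLC7A11 below 0, all for Long, and no upper bound exceeds 0.45.

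CALR (ENSG00000179218, GRCh37 chr19:13049392-13055303, plus strand) was at 383, 348 and 381 FPKM in EV replicates 1, 2 and 3, 430, 395 and 409 FPKM in Short, and 432, 403 and 428 FPKM in Long. The lowest Short or Long library was above the highest EV library, so neither group overlapped with EV. Its log2 fold change was 0.18 for Long (standard error 0.038, adjusted p = 0.019 from limma), higher in 3 of 3 passages, and 0.15 for Short (standard error 0.038, adjusted p = 0.11 from limma), also higher in 3 of 3. With TPM its log2 fold change was 0.11 for Long (adjusted p = 0.0762 from limma), which ended the call, and 0.066 for Short. HSP90B1 (ENSG00000166598, GRCh37 chr12:104323885-104347709, plus strand) was at 327, 314 and 393 FPKM in EV, 312, 264 and 363 FPKM in Short, and 260, 229 and 364 FPKM in Long. It was lower than EV in each passage with either ADARB1 plasmid, and the groups overlapped because passage 3 was high in all of them. Its log2 fold change was -0.30 for Long (standard error 0.063, adjusted p = 0.019 from limma) and -0.14 for Short (standard error 0.063, adjusted p = 0.216 from limma). The promoters of CALR and HSP90B1 both carry the ERSE shown above, and their mRNAs moved in opposite directions in Long.

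DNAJB9 (ERdj4, ENSG00000128590, GRCh37 chr7:108210311-108215294, plus strand), a DnaJ co-chaperone that feeds clients of HSPA5 to ERAD and is a textbook target of spliced XBP1, was at 5.99, 6.07 and 6.82 FPKM in EV, 6.0, 4.82 and 5.67 FPKM in Short, and 4.01, 4.17 and 5.29 FPKM in Long. The Long libraries were all below the EV libraries, and the log2 fold change was -0.42 (standard error 0.094, adjusted p = 0.0251 from limma). For Short it was -0.17 (adjusted p = 0.316 from limma), lower in 2 of 3 passages. SLC7A11 (xCT, ENSG00000151012, GRCh37 chr4:139085251-139163503, minus strand), the cystine transporter that ATF4 and NRF2 raise, was at 6.82, 6.99 and 7.07 FPKM in EV, 4.41, 4.61 and 6.18 FPKM in Short, and 3.81, 4.15 and 6.31 FPKM in Long. Every Short and Long library was below every EV library, and the passage 3 libraries were closest to EV. Its log2 fold change was -0.49 for Long (standard error 0.11, adjusted p = 0.023 from limma) and -0.40 for Short (standard error 0.11, adjusted p = 0.11 from limma). Because 1 is added before the logarithm, differences of genes at such low levels come out smaller than their ratios. Over all 37 genes, groups that did not overlap were found for 3 genes higher in Short (8.11%, against 10.9% of genes tested), 1 lower in Short (2.70% against 2.11%), 1 higher in Long (2.70% against 10.5%) and 2 lower in Long (5.41% against 3.14%).

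The 3 genes that fell in Long share a low GC content, which was not used to list them. The longest transcripts of SLC7A11, DNAJB9 and HSP90B1 have 35.4%, 37.3% and 39.7% GC, and that of CALR has 53.8%. Other genes of the 37 below 39.7% GC went both ways in Long, and none of them passed. DNAJB11 (38.6% GC) had 0.15 and DERL2 (39.1% GC) had 0.11, while SEL1L (39.3% GC) had -0.23. The median was 37.7% over the 873 genes of the whole table that fell in Long, 52.7% over the 275 that rose and 47.8% over all genes tested. Across the 13398 genes with a sequence, log2 fold change and GC content had a Spearman correlation of 0.52 in Long and 0.62 in Short, each against EV, as a description over genes that share libraries. After each library was corrected for GC content, the log2 fold changes in Long were -0.16 for HSP90B1, -0.18 for DNAJB9, -0.18 for SLC7A11 and 0.094 for CALR, and none of the 37 genes passed (adjusted p = 0.148, 0.356, 0.338 and 0.217 from limma), where 2.21% of the genes tested passed. In Short the corrected log2 fold changes were -0.031 for HSP90B1, -0.0016 for DNAJB9, -0.19 for SLC7A11, 0.079 for CALR, 0.13 for SDF2L1, 0.092 for TRIB3 and 0.0017 for ATF4, all nearer to 0 than the uncorrected values given here and below, while those of HSPA5 and XBP1 were further from 0 (0.15 and 0.11). In Long none of the 37 passed without the replicate block either (adjusted p from 0.637 to 0.67 from limma), without replicate 1 or without replicate 2. Of the genes tested, 0.0145%, 0.0145% and 0.725% passed there. Without replicate 3 only HSP90B1 and SLC7A11 of the 37 passed, against 7.47% of the genes tested.

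The ER stress markers HSPA5, HERPUD1, SDF2L1 and XBP1 did not pass for either ADARB1 plasmid, while CALR, HSP90B1 and DNAJB9 passed in Long as given above. HSPA5 was at 198, 168 and 180 FPKM in EV, 229, 180 and 187 FPKM in Short, and 191, 183 and 203 FPKM in Long. The 3 groups overlapped, with a log2 fold change of 0.12 for Short (95% interval -0.025 to 0.26) and 0.080 for Long (-0.064 to 0.22). With TPM these were 0.035 and 0.0051, and with each replicate left out 0.073 to 0.15 for Short and 0.034 to 0.15 for Long. HERPUD1, an ERAD component induced strongly by ER stress, was at 32.6, 28.3 and 24.6 FPKM in EV, 37.1, 31.0 and 22.3 FPKM in Short, and 31.1, 32.1 and 25.1 FPKM in Long. Its groups overlapped too, and its libraries were ordered by passage more than by group. SDF2L1 was at 20.7, 19.6 and 19.8 FPKM in EV, 24.9, 23.4 and 23.7 FPKM in Short, and 18.7, 24.3 and 23.2 FPKM in Long. The Short libraries were all above EV, with a log2 fold change of 0.25 (standard error 0.089, adjusted p = 0.154 from limma), and in Long the first library was below EV and the other 2 above it (0.12, adjusted p = 0.429 from limma). XBP1, the transcription factor that IRE1 splices, was at 53.5, 52.0 and 48.6 FPKM in EV, 59.3, 56.9 and 43.7 FPKM in Short, and 51.1, 57.1 and 46.6 FPKM in Long. It had log2 fold changes of 0.041 for Short and 0.0017 for Long, and both turned below 0 with TPM (-0.042 and -0.073).

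The other genes of the ER arm did not pass for either ADARB1 plasmid. Among the chaperones, HYOU1 (GRP170, the nucleotide exchange factor of HSPA5) had log2 fold changes of 0.20 for Short and 0.13 for Long (adjusted p = 0.204 and 0.377 from limma). CANX had 0.060 and 0.088, and the DnaJ co-chaperones DNAJB11 and DNAJC3 had 0.049 and 0.055 for Short and 0.15 and -0.061 for Long. The isomerases PDIA3, PDIA4 and PDIA6 had log2 fold changes from 0.019 to 0.11 in either comparison. The secreted ER stress proteins MANF and CRELD2 were between 0.065 and 0.10. In ERAD, the ubiquitin ligase SYVN1 had 0.19 and 0.094, the mannosidase-like lectin EDEM1 had 0.0067 and 0.050, and DERL1 and DERL2 were between 0.014 and 0.11. SYVN1 overlaps FAU, a ribosomal protein gene at 427 FPKM, on the same strand. The widest interval of the ER arm belonged to SEL1L, the partner of SYVN1 in the ERAD complex, which had -0.13 for Short (95% interval -0.47 to 0.20) and -0.23 for Long (-0.57 to 0.10). For the sensors, ERN1 had 0.14 and 0.070, ATF6 had -0.021 and 0.0049, and EIF2AK3 had 0.023 and 0.096 in Short and Long, and the 95% interval of each of these held 0.

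The indicator genes of the ATF4 arm did not pass for either ADARB1 plasmid. ATF4 was at 310, 335 and 250 FPKM in EV, 337, 373 and 247 FPKM in Short, and 334, 385 and 247 FPKM in Long, with log2 fold changes of 0.085 (95% interval -0.022 to 0.19) and 0.097 (-0.010 to 0.20). In each group its lowest library was that of passage 3. DDIT3 (CHOP), the proapoptotic factor of prolonged stress, was at 29.3, 32.0 and 26.0 FPKM in EV, 33.1, 34.3 and 25.6 FPKM in Short, and 28.3, 37.2 and 26.9 FPKM in Long. DDIT3 overlaps MARS1 on the opposite strand (mean 103 FPKM over the 9 libraries), and whether strand was used in counting is not given in the sources used here. ATF3, a stress-induced repressor, was at 54.4, 51.0 and 43.4 FPKM in EV, 57.3, 54.0 and 40.8 FPKM in Short, and 46.0, 52.3 and 42.4 FPKM in Long. The groups overlapped for all 3 transcription factors, and the upper bounds of their 95% intervals did not exceed 0.24.

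TRIB3, a pseudokinase that feeds back on ATF4 and DDIT3, was at 22.8, 18.4 and 14.3 FPKM in EV, 26.8, 23.0 and 14.8 FPKM in Short, and 20.9, 21.5 and 15.5 FPKM in Long. It was higher than EV in 3 of 3 passages in Short (log2 fold change 0.19, standard error 0.084, adjusted p = 0.211 from limma) and in 2 of 3 in Long (0.065, adjusted p = 0.68 from limma). CHAC1, a glutathione-degrading enzyme that is among the most inducible targets of ATF4, was at 7.85, 11.6 and 5.99 FPKM in EV, 7.94, 13.9 and 6.85 FPKM in Short, and 8.27, 16.0 and 6.16 FPKM in Long. Passage 2 was the highest in each group, with log2 fold changes of 0.14 for Short and 0.18 for Long (limma, adjusted p = 0.385 and 0.266). PPP1R15A (GADD34), the phosphatase subunit that reverses eIF2alpha phosphorylation, was at 35.0, 32.0 and 27.3 FPKM in EV, 40.9, 36.5 and 28.7 FPKM in Short, and 33.7, 38.0 and 30.1 FPKM in Long. It had log2 fold changes of 0.16 and 0.11 (limma, adjusted p = 0.239 and 0.4). SESN2, a leucine sensor upstream of mTORC1, had 0.15 and 0.12, and DDIT4 (REDD1), an inhibitor of mTORC1, had -0.15 and -0.41. For DDIT4 the passages differed in direction in Long, with 0.17, -0.56 and -0.85 in passages 1, 2 and 3, and this difference between passages was not tested.

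ASNS (ENSG00000070669, GRCh37 chr7:97480989-97501854, minus strand) was at 156, 150 and 95.7 FPKM in EV, 151, 133 and 88.8 FPKM in Short, and 170, 140 and 90.3 FPKM in Long. Passage 3 was the lowest in every group, and the log2 fold changes against EV were -0.11 for Short (95% interval -0.22 to 0.012) and -0.020 for Long (-0.14 to 0.098). PHGDH, PSAT1 and SHMT2 had log2 fold changes from -0.0057 to 0.12 in either comparison.

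Between the plasmids, no gene of the 37 passed in Long against Short, where 0.00725% of the genes tested passed. At an unadjusted p under 0.05 there were 2 (5.41%), HSP90B1 and DNAJB9, both lower in Long, against 7.54% of the genes tested. The log2 fold change was -0.16 for HSP90B1 (95% interval -0.29 to -0.016) and -0.25 for DNAJB9 (-0.46 to -0.037), with adjusted p = 0.623 and 0.601 (limma). For SLC7A11 it was -0.088 (-0.33 to 0.15) and for CALR 0.033 (-0.052 to 0.12). The intervals of all 37 lay between -1 and 1, which does not show that the isoforms act alike. The comparisons of Short and of Long with EV share the EV libraries.

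The cell passages separated these genes more than the plasmids did. In the same fit, 21 of the 37 genes (56.8%) differed between passages (limma's moderated F-test, adjusted p under 0.05), against 36.4% of the genes tested. The genes of the ATF4 arm make up 12 of these, all of the arm but SLC7A11, and all 12 had their lowest mean in passage 3. Over the 37 genes, 17 (45.9%) passed with the lowest mean in passage 3, against 18.6% of the genes tested, and 3 (8.11%) passed with the highest mean there, against 16.5%. The 3 libraries of passage 3 were all below the other 6 for 15 of the 37 (40.5%), against 17.3% of the genes tested, and 11 of these 15 belong to the ATF4 arm. The median log2 difference of passage 3 from passage 1, adjusted for group, was -0.35 in the ATF4 arm, -0.059 in the ER arm and -0.046 over all genes tested. With TPM it was -0.27, 0.029 and 0.033, and with median ratio scaling -0.29, 0.0019 and 0.0081, so the median of the ER arm stayed close to that of all genes as both turned above 0.

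ASNS had a mean of 159 ± 9.58 FPKM in passage 1, 141 ± 8.45 FPKM in passage 2 and 91.6 ± 3.64 FPKM in passage 3 (SD, n = 3 libraries, 1 of each group), a log2 difference of -0.79 between passages 3 and 1 (adjusted p = 9.89e-05 from limma's F-test). PHGDH, the first enzyme of serine synthesis, was at 204 ± 9.69, 180 ± 5.39 and 130 ± 6.53 FPKM (-0.65, adjusted p = 9.85e-05 from limma's F-test). PSAT1, the next enzyme of the pathway, was at 147 ± 6.70, 127 ± 7.30 and 100.3 ± 3.18 FPKM (-0.55, adjusted p = 0.000331 from limma's F-test). In these 3 genes the passages did not overlap, and passage 1 was the highest. SHMT2, the mitochondrial enzyme that turns serine into one-carbon units, had -0.35 and TRIB3 had -0.62. DDIT4 showed the widest difference of the 37, with 101 ± 6.31, 57.6 ± 11.4 and 43.6 ± 12.6 FPKM (-1.23, adjusted p = 0.000773 from limma's F-test), and its libraries of passages 2 and 3 overlapped.

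ATF4, DDIT3, CHAC1 and SESN2 had their highest mean in passage 2. For CHAC1 the libraries of passage 2 were above all others, while for ATF4, DDIT3 and SESN2 they overlapped with passage 1, and these did not pass without the libraries of replicate 3. ATF4 was at 327 ± 14.9, 364 ± 25.9 and 248 ± 1.74 FPKM in passages 1, 2 and 3 (-0.39 for passage 3 against 1, adjusted p = 0.000304 from limma's F-test). CHAC1 was at 8.02 ± 0.221, 13.8 ± 2.18 and 6.33 ± 0.456 FPKM, a log2 difference of 0.71 for passage 2 and -0.30 for passage 3 against passage 1 (adjusted p = 0.000315 from limma's F-test). DDIT3 (0.18 and -0.20) and SESN2 (0.22 and -0.18) also had a higher mean in passage 2 and a lower one in passage 3. ATF3 was 0.0026 and -0.30, and PPP1R15A was -0.041 and -0.33, on the same scale. All 4 genes with a CARE in the window shown above (ASNS, ATF3, CHAC1 and HERPUD1) passed with their lowest mean in passage 3. So did 45.9% of the 37 genes and 18.6% of the genes tested. ASNS, ATF3 and CHAC1 belong to the ATF4 arm, in which all genes but SLC7A11 did so. That includes genes with no CARE in their window, such as PHGDH, PSAT1 and TRIB3. ATF3 did not pass after the GC correction described below (adjusted p = 0.0508 from limma's F-test). SLC7A11 did not pass and had its highest mean in passage 3 (0.35, adjusted p = 0.0512 from limma's F-test), but its difference turned to -0.041 after the GC correction described below (adjusted p = 0.545 from limma's F-test).

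**Figure D3:**
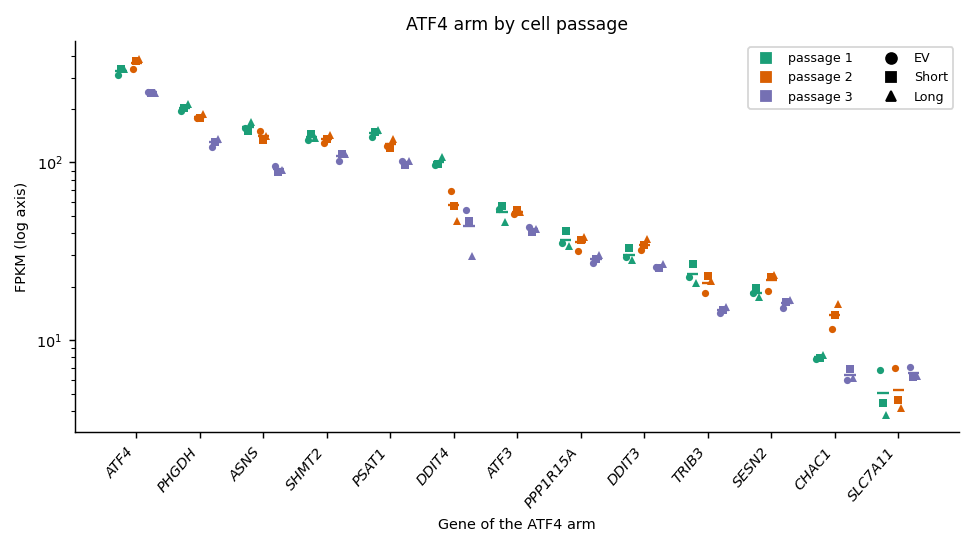
Points are the FPKM (log axis) of the 13 genes of the ATF4 arm in the 9 libraries, with color for the passage, shape for the group (EV, Short, Long) and a dash for the mean of each passage. Passage 3 has the lowest mean for all genes but SLC7A11, and CHAC1 is highest in passage 2 (11.6 to 16.0 FPKM).

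In the ER arm 9 of 24 genes passed between passages (37.5%, close to the 36.4% of all genes tested), and their directions were mixed. HERPUD1, ERN1, XBP1, PDIA4 and PDIA6 were lowest in passage 3, with log2 differences from passage 1 of -0.47, -0.33, -0.23, -0.30 and -0.19. HSP90B1, CANX and DNAJC3 (p58IPK, an inhibitor of PERK) were highest there, with 0.32, 0.19 and 0.14, and MANF was lowest in passage 2 (-0.20). HSPA5 did not pass (adjusted p = 0.0624 from limma's F-test), and its means were 206 ± 20.6, 177 ± 7.67 and 190 ± 11.9 FPKM. Passage differences were related to GC content as well: the Spearman correlation across genes was -0.46 for passage 3 against 1, genes that passed with the lowest mean in passage 3 had a median of 52.9% GC, and the ATF4 arm had 56.7% against 44.4% for the ER arm. After the GC correction 17 of the 37 genes passed between passages, 10 of them in the ATF4 arm, where 28.0% of the genes tested passed. The median difference of passage 3 from passage 1 was then -0.23 in the ATF4 arm with 13 of 13 genes below 0, -0.12 in the ER arm with 16 of 24 below 0, and -0.018 over all genes, so the arms lay closer together than before the correction. Without the libraries of replicate 3, only CHAC1 and DDIT4 passed (0.217% of the genes tested).

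The spread of each gene over the 9 libraries was split into a share between groups, a share between passages and a rest. The median share between passages was 84.4% in the ATF4 arm, 55.0% in the ER arm and 49.8% over all genes tested. The median share between groups was 6.69%, 13.7% and 19.9%. The passage share was the larger in 29 of the 37 genes (78.4%), against 70.3% of the genes tested. PHGDH and ASNS had 96.7% of their sum of squares between passages, PSAT1 had 94.5% and ATF4 had 94.0%. At the other end were CALR with 69.1% between groups, DNAJB9 with 68.9%, SLC7A11 with 57.1%, PDIA3 with 57.1% and SDF2L1 with 53.1%. ATF6 had 95% in neither, and its 9 values lay between 7.72 and 9.46 FPKM.

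**Figure D4:**
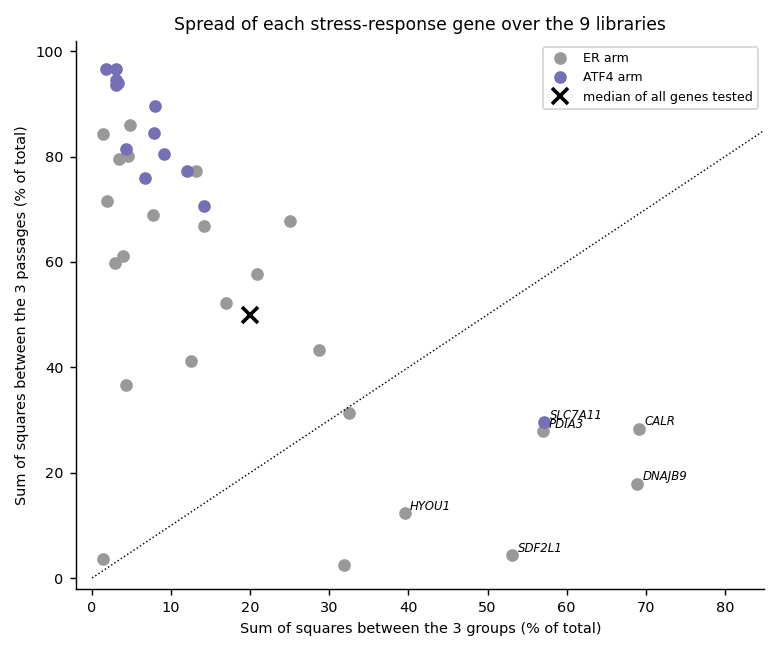
Each point is 1 of the 37 genes, with the share of its sum of squares in log2(FPKM + 1) between the 3 groups on the x axis and between the 3 passages on the y axis, in percent of its total; the cross is the median of all genes tested and the dotted line marks equal shares. Of the 37 genes, 29 lie above the line, and CALR, DNAJB9, SLC7A11, PDIA3, SDF2L1 and HYOU1 are the labeled genes with the largest group shares.

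The rest of the pathways was read from 7 lists of 162 other genes, of which 155 were tested. In Short against EV none of the 155 passed. In Long against EV 10 were higher (6.45%, against 1.99% of all genes tested) and 11 lower (7.10%, against 6.33%), and in Long against Short none passed. With TPM 2 were higher and 18 lower, where 0.413% of all genes were higher and 8.86% lower. After the GC correction 2 were higher and 2 lower, where 0.935% of all genes were higher and 1.28% lower. Of those that passed, SLC3A2, SRP72 and STC1 were among the 21 before it. With the quadratic GC correction 1 was higher and 2 lower, where 2.16% of all genes passed in either direction. None passed without the replicate block (against 0.0145% of the genes tested), with no filter on low values (0.00366%), without replicate 1 (0.0145%) or without replicate 2 (0.725%). Of 24 translocation genes 4 fell (16.7%, against 6.33% of all genes tested), with SEC62, a helper of post-translational import, from 50.8 ± 12.6 to 34.4 ± 22.5 FPKM (-0.70, adjusted p = 0.0198 from limma) and SRP72, a protein of the signal recognition particle, from 55.5 ± 10.1 to 40.4 ± 14.9 FPKM (-0.49, adjusted p = 0.00965 from limma). Of 25 other folding genes 4 fell (16.0%) and 1 rose, with the HSP70-like HSPA13 from 25.8 ± 4.39 to 16.0 ± 7.76 FPKM (-0.73, adjusted p = 0.00916 from limma). All 3 were lower in Long in each passage, but the groups overlapped because passage 3 was high in both, as with SEC62 at 65.2 FPKM in EV and 60.3 FPKM in Long. These 3 genes have 36.5%, 38.9% and 34.5% GC. Of 23 other ERAD genes EDEM3 (-0.45) and UBXN4 (-0.32) fell and VCP, the ATPase that pulls proteins out of the membrane, rose (0.20, adjusted p = 0.0302 from limma).

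Higher in Long were 5 of 30 other targets of ATF4 and CHOP (16.7%), with 1 lower, and 3 of 19 aminoacyl-tRNA synthetases (15.8%, each against 1.99% of all genes tested), which charge tRNAs with their amino acids. Of these 8 higher genes SLC3A2 and WARS1 passed with TPM, SLC3A2 passed with the linear GC correction, and none passed with the quadratic one. SLC3A2, the heavy chain that SLC7A11 and SLC7A5 share, was at 97.7, 114 and 99.7 FPKM in EV, 112, 127 and 110 FPKM in Short, and 120, 146 and 117 FPKM in Long, a log2 fold change of 0.29 (limma, adjusted p = 0.00953). SLC7A5, the leucine transporter that pairs with it, had 0.26 (adjusted p = 0.0268 from limma), PSPH, the last enzyme of serine synthesis, had 0.27 (adjusted p = 0.0307 from limma), and SLC1A5, a glutamine transporter, had 0.17 (adjusted p = 0.0419 from limma). The synthetase WARS1 had 0.29 (adjusted p = 0.0121 from limma), HARS1 had 0.22 and SARS1 had 0.17. The longest transcripts of these 7 genes have 49.8% to 61.3% GC, above the median of all genes tested. STC1, a secreted glycoprotein, fell (-0.48, adjusted p = 0.0214 from limma). No gene of the 15 other regulators of the unfolded protein response and none of the 19 genes of the eIF2 machinery passed in Long against EV. The 2 highest of each were TMBIM6 (227 FPKM) and RTCB (66.7 FPKM), the tRNA ligase that joins spliced XBP1, and EIF1 (484 FPKM) and EIF2S3 (178 FPKM).

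Between passages most of the other targets of ATF4 and CHOP were lowest in passage 3. Of 30 genes 25 passed (83.3%, against 36.4% of all genes tested), 23 of them with the lowest mean in passage 3 (76.7%, against 18.6%). After the GC correction 21 passed (70.0%, against 28.0%). Their median difference between passages 3 and 1 was -0.37. PCK2, the mitochondrial PEP carboxykinase, was at 28.5, 22.7 and 15.2 FPKM in EV, 29.6, 25.2 and 15.5 FPKM in Short, and 29.6, 28.2 and 15.0 FPKM in Long (-0.90, adjusted p = 0.000232 from limma's F-test). STC1 had -1.09 (adjusted p = 0.000374 from limma's F-test) and VLDLR, a lipoprotein receptor, had -0.73 (adjusted p = 0.000597 from limma's F-test). Aminoacyl-tRNA synthetases split, with 12 of 19 passing (63.2%), 7 lowest and 5 highest in passage 3. EPRS1 had the widest difference of the list between any 2 passages (0.69, adjusted p = 0.00202 from limma's F-test). For passage 3 against 1 EPRS1 was 0.40, while AARS1 and CARS1 had -0.49 and -0.48. Of the 24 translocation genes 11 passed (45.8%), 8 of them highest in passage 3 (33.3%, against 16.5% of all genes tested), and their median difference was 0.11. The folding genes (14 of 25, 56.0%), the ERAD genes (7 of 23, 30.4%), the other regulators (7 of 15, 46.7%) and the eIF2 genes (9 of 19, 47.4%) passed in both directions, against 36.4% of all genes tested. Over the 155 genes together 85 passed (54.8%, against the same 36.4%). After the GC correction 38.1% of the 155 passed, against 28.0% of all genes tested, with 32.0% of the folding genes, 17.4% of the ERAD genes, 3 of the 15 other regulators, 31.6% of the eIF2 genes, 33.3% of the translocation genes and 47.4% of the synthetases.

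**Figure D5:**
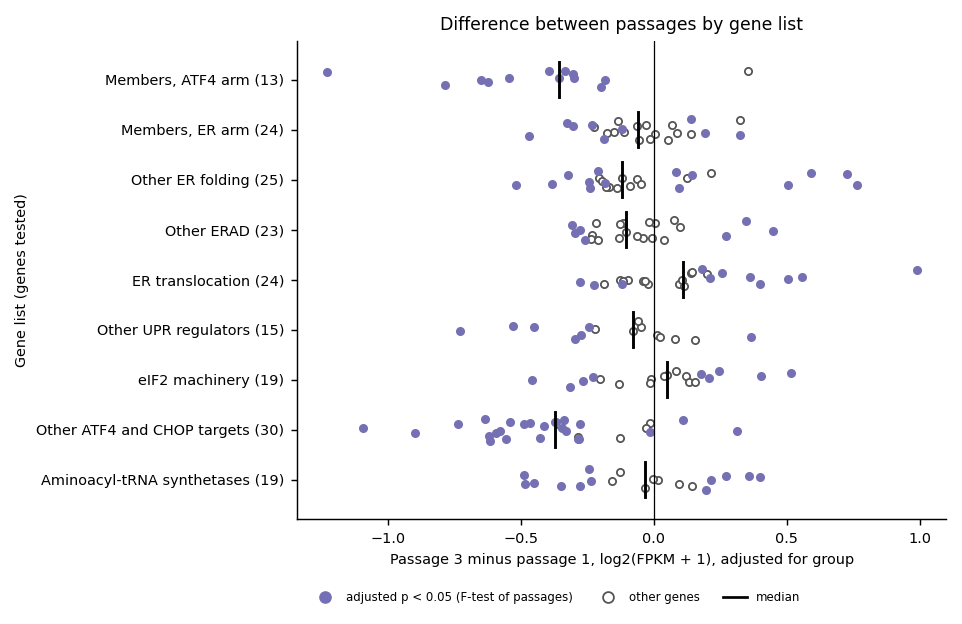
Points are log2 differences between passage 3 and passage 1, adjusted for group, of the genes in each list (number tested in parentheses); filled points passed limma's F-test of the passages and the bar is the median of the list. The ATF4 arm and the other ATF4 and CHOP targets have medians of -0.35 and -0.37, while the ER lists lie on both sides of 0.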

How the data were processed

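The authors aligned paired reads with TopHat (version 1.4.1), first to Ensembl transcripts and, where unmapped, to hg19, and the deposited table holds FPKM per Ensembl gene and library, without pooled replicates. The submitters' processing notes also name Cufflinks. The annotation release and the use of strand in counting are not given in the sources used here. Of its 54562 genes, 27206 had no signal in any of the 9 libraries. It holds no counts, so no counting intervals were computed.

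The log2(FPKM + 1) values of 13801 genes (mean over the libraries 1 FPKM or more) were fitted with limma (version 3.58.1, lmFit and eBayes with an intensity trend) in R (version 4.3.3). The model held group and, as a block, replicate number, with Benjamini-Hochberg adjustment over all of these genes and a threshold of 0.05. Passages were compared by the moderated F-test of the replicate terms. The block follows the study's methods, in which transfections were repeated in different passages. Deviations from the group means had a mean correlation across genes of 0.55 over the 9 same-numbered pairs of libraries (0.33 to 0.81). Over the 18 other pairs it was -0.26 (-0.63 to 0.37), so the ranges overlapped. Deviations sum to 0 within a group, so the negative mean largely follows from the positive one. Short replicate 2 correlated more with EV replicate 1 (0.37) than with EV replicate 2 (0.33). For Long replicate 2 the values were 0.36 and 0.35, so these correlations do not separate EV replicates 1 and 2. The fit was tested on simulated data. That the 3 libraries of a group come from separate passages is stated in the methods, and other sources of spread were not recorded.

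Symbols, GC content and positions came from GENCODE on GRCh37, which matched 47578 identifiers (87.2%), and GC content was known for 97.1% of the genes tested. It was taken from the longest transcript, and each library was corrected by a loess curve (span 0.3). The members and lists were chosen with earlier results of these data known. All 37 genes could be named, with values in every library for textbook indicators of each arm and for genes past the threshold; from each other list up to 5 genes with the largest change among those that passed and moved the same way in the 3 passages, or else the 2 most abundant. Genes named for their difference between passages were among the 5 largest of their list. Alternatives were a pseudocount of 0.1 FPKM, TPM, median ratio scaling, no replicate block, only the groups compared, no trend, each replicate left out, no filter, a minimum mean of 5 FPKM, and GC corrections, of which the quadratic loess was added after seeing the data.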

Additional observations from a re-analysis of the deposited data

How the results depend on the processing

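No gene of the 37 passed in Short against EV or in Long against Short under any alternative run, where at most 0.428% of the genes tested passed. In Long against EV 4 passed (against 8.32% of the genes tested), 3 with TPM (without CALR, against 9.27%) and 2 with eBayes without a trend (DNAJB9 and SLC7A11, against 4.68%). None passed with no replicate block (against 0.0145%), with no filter on low values (0.00366%), and with the linear (2.21%) and the quadratic GC correction (2.16%). With replicate 1, 2 or 3 left out the count was 0, 0 and 2 (against 0.0145%, 0.725% and 7.47%). The block is thus among the choices that each ended all 4 calls, and it changed no call in the other comparisons between groups. Between passages 21 of the 37 passed (56.8%, against 36.4% of the genes tested), and 13 with no filter on low values (35.1%, against 10.5%). With replicate 1, 2 or 3 left out it was 17, 19 and 2 (45.9%, 51.4% and 5.41%, against 31.5%, 34.4% and 0.217%). Under the other alternatives it was 17 to 22, where 28.0% to 42.6% of the genes tested passed. The 12 of the ATF4 arm became 2 to 12 with each replicate left out and 10 to 13 otherwise. Leaving out a replicate tests fewer libraries and no filter tests more genes. The cause of a changed count was not tested for any setting.

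Folds near 0 turned sign. Short against EV with TPM gave -0.024 for HERPUD1, -0.042 for XBP1, -0.061 for ATF3 and -0.00062 for DDIT3, with median ratio scaling -0.010 for XBP1 and -0.029 for ATF3, and with the quadratic GC correction 5.29e-06 for DNAJB9. With each replicate left out HERPUD1 reached -0.0044 to 0.15, XBP1 -0.012 to 0.14 and ATF3 -0.0064 to 0.076. Long against EV with TPM gave -0.028 for HERPUD1, -0.073 for XBP1, -0.0026 for DDIT3 and -0.0064 for TRIB3, with median ratio scaling -0.037 for XBP1, with the linear GC correction -0.015 for HERPUD1, -0.0035 for DDIT3, -0.027 for TRIB3 and 0.0051 for ASNS, and with the quadratic one -0.018 for HERPUD1, -0.027 for TRIB3 and 0.0021 for ASNS. With each replicate left out HERPUD1 was -0.019 to 0.10, XBP1 -0.064 to 0.036, ATF3 -0.13 to 0.0018, TRIB3 -0.0061 to 0.16 and ASNS -0.092 to 0.020.

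Libraries were 3 per group, and FPKM gives no read numbers. The number of fragments behind genes near 5 FPKM, such as SLC7A11 and DNAJB9, is therefore not known. PDIA3 shares sequence with its pseudogene PDIA3P1, listed at 26.1 to 32.7 FPKM, and SYVN1 overlaps FAU (427 FPKM) on the same strand, so how fragments were assigned there is uncertain.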
